A study of Homo sapiens with 4 samples.

Results

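The genes described here encode subunits and partners of complexes that write, remove or read acetyl and methyl groups on histones. The 45 members were chosen with earlier results of these data known. They were picked by symbol, through the transcript named in each row of the intron tables, by a rule that uses no measured value. They comprise 17 genes of the SIN3 and HDAC corepressor, 11 of the COMPASS methyltransferases, 4 histone demethylases, 4 other histone methyltransferases, 3 of Polycomb repressive complex 2 (PRC2), and 6 BET, acetyltransferase and SWI/SNF genes. Of these, 43 had reads over at least 1 intron, among 17774 genes with reads in all, and ING1 and ING2 were not analysed here. The members held 1200 of the 209574 unique introns with reads.

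The cells were K562, an established line from chronic myeloid leukaemia. In 1 group of 2 samples (WT) SF3B1 was wild type, and in the other group of 2 samples (K700E) it carried the K700E substitution. Both groups received doxycycline at 1 µg/ml to induce the modified allele and were harvested 4 days later, so no sample was uninduced. Chromatin-bound RNA, from which ribosomal and polyadenylated RNA had been removed, was sequenced in long reads. The question was what share of introns is already spliced while RNA is on chromatin, with and without the substitution. The labels do not say that samples of 1 group are separate cultures, so a p-value here reflects only sample-to-sample spread, possibly technical.

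SIN3 proteins are scaffolds that bring the histone deacetylases HDAC1 and HDAC2 to chromatin, where removal of acetyl groups is linked to lower transcription. COMPASS complexes methylate histone H3 at K4 through a KMT2 or SETD1 enzyme held by the shared subunits WDR5, RBBP5, ASH2L and DPY30, and the KDM5 enzymes remove that mark. PRC2 methylates H3K27 through EZH2, and KDM6A removes it. SF3B1, part of the U2 spliceosomal particle, sits at the branch point upstream of the 3′ splice site, and K700E is known for the use of cryptic 3′ splice sites.

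Read-intron overlaps, in which each read counts once for every intron it lies over, numbered 459708 to 1346788 per sample, and K700E replicate 1 was the shallowest. The members took 11699 and 8590 of these in the WT samples, and 3586 and 5972 in K700E replicates 1 and 2. A single gene, KMT2C, supplied 15.2 to 24.2% of the members' overlaps. The labels name the cells both K562 and epithelial. Of 9 genes listed as K562 markers 8 had reads, their summed overlaps were 889 to 4310 per sample, mostly from TFRC, and KLF1 was at 0. Of 6 epithelial keratin and adhesion genes 5 had reads, with sums of 24 to 95, and KRT5 was at 0. The tables hold no base calls, so the K700E allele itself was not checked.

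Sequences are shown first for the introns on which the results turn. EZH2, the catalytic subunit of PRC2 (ENSG00000106462.10, chr7:148807383-148884321, minus strand, GRCh38), had 2 adjacent introns that were rarely spliced in WT. These are intron 10 (chr7:148817392-148817876) and intron 11 (chr7:148816779-148817221) of its 19-intron coding transcript. Each line gives the last 10 exon bases with the first 20 intron bases at the 5′ end, or the last 40 intron bases with the first 10 exon bases at the 3′ end, from GENCODE 29 transcripts on the strand of the gene. Capitals mark the first and the last pair of intron bases.
EZH2 intron 10, 5′ splice site, chr7:148817857-148817886: agctcctctgGTaagacacgtctaataact
EZH2 intron 10, 3′ splice site, chr7:148817382-148817431: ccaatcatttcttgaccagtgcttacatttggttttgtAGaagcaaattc
EZH2 intron 11, 5′ splice site, chr7:148817202-148817231: atgtagacagGTaagatatccgataaaaat
EZH2 intron 11, 3′ splice site, chr7:148816769-148816818: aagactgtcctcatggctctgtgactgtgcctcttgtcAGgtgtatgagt
Both introns begin with GT and end with AG. Reads counted as spliced over them carry the following exon junctions, in which capitals mark the last pair of bases of the upstream exon and the first pair of the downstream exon.
EZH2 intron 10, joined: cttcgagctcctcTGAAgcaaattctcggt
EZH2 intron 11, joined: aaaacatgtagacAGGTgtatgagtttaga

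KMT2C and RBBP4 supplied most of the other introns that could be tested. KMT2C, a COMPASS methyltransferase of enhancers (ENSG00000055609.17, chr7:152134922-152436005, minus strand), is shown by the 3′ end of its intron 4 (chr7:152311947-152315137) and by the junction of its intron 17 (chr7:152230028-152230219). RBBP4, a histone-binding subunit shared by SIN3, PRC2 and other complexes (ENSG00000162521.18, chr1:32651142-32686211, plus strand), is shown by both ends of its intron 4 (chr1:32668399-32668738). Capitals are as above.
KMT2C intron 4, 3′ splice site, chr7:152311937-152311986: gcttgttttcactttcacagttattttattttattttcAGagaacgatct
KMT2C intron 17, joined: ttcactttgaatcAGGAtatgtgtgtagtt
RBBP4 intron 4, 5′ splice site, chr1:32668389-32668418: tctaaaccagGTatgtgcccttttctattc
RBBP4 intron 4, 3′ splice site, chr1:32668699-32668748: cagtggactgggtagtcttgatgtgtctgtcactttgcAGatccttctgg
Both genes have near-identical copies elsewhere in the genome, KMT2C in the BAGE family and RBBP4 in processed pseudogenes. The assignment of such reads is not stated in the sources used here, so values of both genes are uncertain.

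Splicing efficiency per gene is the share of a gene's read-intron overlaps that carry the junction of that intron. Every annotated intron counts, including unused ones nested in others, which can lower the gene values. With at least 10 overlaps in every sample, 33 of the 43 members with reads were tested, and 20 were lower and 13 higher in K700E by their means. Their median difference was -2.22 percentage points, against -2.55 over all 5085 genes tested, of which 62.4% were lower. Where introns overlap, counting just the most used one gave medians of -8.06 over 32 members and -2.91 over 4282 genes. No member passed an adjusted p of 0.05 (edgeR's quasi-likelihood test), where the share of all genes that passed was also 0%. At an unadjusted p under 0.05 stood 2 members, SMARCA4 and KMT2B, against 3.3% of all genes. DESeq2 and limma called no member either. Both K700E samples lay below both WT samples in 8 members (all genes: 21.1%) and above them in 5 (all genes: 10.3%). The members' median was -8.77 percentage points without K700E replicate 2 and 1.30 without WT replicate 1, so its sign turned on 1 sample.

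**Figure D1:**
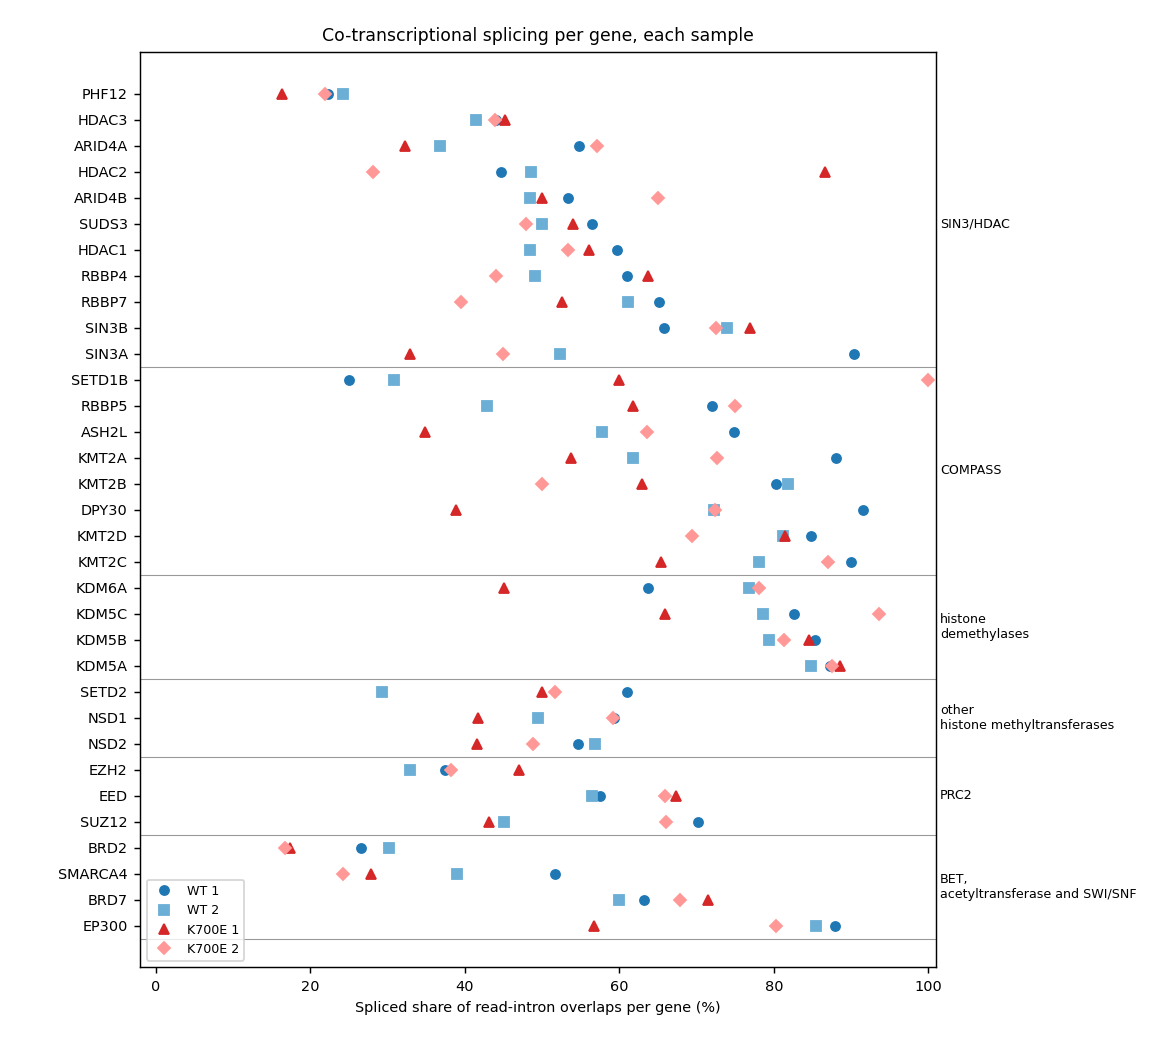
Spliced share of read-intron overlaps (%, x axis) for the 33 members tested, 1 row per gene, with a point for each of the 2 WT (blue) and 2 K700E (red) samples and lines between the complexes. SMARCA4, KMT2B, SIN3A and EP300 have both red points left of both blue ones, and in many other rows the samples of a group lie far apart.

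SMARCA4, the ATPase of the SWI/SNF remodelling complex (ENSG00000127616.18, chr19:10960825-11079426, plus strand), had 51.7 and 39.0% of overlaps spliced in WT and 27.8 and 24.2% in K700E. The groups did not overlap. The means were 45.4% ± 8.99 and 26.0% ± 2.55 (SD, n = 2 each), on 133 to 264 overlaps per sample, with an unadjusted p of 0.0376 and an adjusted p of 1.00 from edgeR. Many of its 71 annotated introns are nested in others and were not used, which lowers these values. Over the 34 introns of 1 coding transcript the shares were 73.4 and 63.6% for WT, against 46.2 and 44.6% for K700E. In that transcript 13 to 17 introns per sample had reads but no junction. Introns 2 to 6, for example, had 1 or 2 reads in each sample, all unspliced, so single unspliced reads that cross many introns weigh heavily in the gene value. Of its 14 introns with at least 5 reads in each group, 13 had a lower summed share in K700E. Over the 33 genes 61.2% of such introns were lower. One long read enters every intron it crosses, so the introns counted within a gene are not independent.

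KMT2B, a COMPASS methyltransferase (ENSG00000272333.5, chr19:35718019-35738878, plus strand), had 80.3 and 81.8% spliced in WT and 63.0 and 50% in K700E. Those K700E values rested on 27 and 24 overlaps and the WT samples on 71 and 88. The means differed by -24.6 percentage points, with an unadjusted p of 0.0448 and an adjusted p of 1.00 from edgeR. The unadjusted result thus rests on shallow K700E counts.

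EP300, the histone acetyltransferase p300 (ENSG00000100393.12, chr22:41091786-41180079, plus strand), had 88.0 and 85.5% spliced in WT and 56.7 and 80.3% in K700E. Both K700E samples were below both WT samples, and the mean difference was -18.2 percentage points, or -6.38 without K700E replicate 1. Over the introns of 1 coding transcript, 25 of 27 with at least 5 reads in each group had a lower summed share in K700E and 0 a higher one. These introns share reads and are not independent. CREBBP, its paralog, was not tested because K700E replicate 1 had 9 overlaps. Its shares were 59.8 and 56.2% for WT, against 55.6 and 20.9% for K700E.

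Among the corepressor genes, SIN3A, the scaffold itself (ENSG00000169375.15, chr15:75369379-75455842, minus strand), had 90.3 and 52.3% spliced in WT and 33.0 and 45.0% in K700E. The groups did not overlap, but the 2 WT samples were farther apart than the higher K700E sample was from the lower WT one (unadjusted p = 0.0856, adjusted p = 1.00, edgeR). In its 20-intron coding transcript, 16 of 16 introns with at least 5 reads in each group had a lower summed share in K700E. Because these introns share reads, the count does not stand for independent observations. SIN3B, the other scaffold, had 65.8 and 74.0% in WT against 76.9 and 72.5%, and its groups overlapped. RBBP7, a histone-binding subunit, had 65.2 and 61.1% in WT against 52.5 and 39.5%, without overlap.

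The deacetylases themselves gave no ordered difference. HDAC1 had 59.7 and 48.4% in WT and 56.0 and 53.4% in K700E. HDAC3 had 44.1 and 41.4% in WT and 45.2 and 43.9% in K700E. HDAC2 ranged from 28.0 to 86.7% within K700E alone, on 82 and 15 overlaps. In HDAC3 the short introns 4 and 5 (127 and 120 nt) were poorly spliced in WT, at 20.0 and 24.2% of reads from both samples, while its introns 1 to 3 were spliced in all reads of both WT samples.

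Of the COMPASS genes, SETD1B, a methyltransferase, differed most in the other direction, with 25.0 and 30.8% spliced in WT and 60 and 100% in K700E. These values rest on 10 to 24 overlaps per sample (unadjusted p = 0.0668, adjusted p = 1.00, edgeR). In the 16-intron coding transcript of SETD1B, K700E replicate 2 had 15 overlaps, and 0 introns had at least 5 reads in each group. One read counts once for every intron it crosses, so these overlaps may come from few reads. ASH2L had 74.8 and 57.8% in WT against 34.8 and 63.5%, and DPY30 had 91.5 and 72.3% against 38.9 and 72.4%. In both genes K700E replicate 1 alone was low. DPY30 shares its strand and part of its span with MEMO1, so reads of the 2 genes cannot be told apart over that span. The 4 introns of the DPY30 coding transcript held 0 and 10 overlaps in WT and 10 and 18 in K700E. Most of its gene value thus comes from other annotated introns. RBBP5 had 72 and 42.9% in WT and 61.7 and 75% in K700E, with overlapping groups.

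Among the other genes tested in the remaining groups, some were ordered, and none had an unadjusted p under 0.05 (edgeR). BRD2, a BET reader of acetylated histones, had 26.6 and 30.2% spliced in WT and 17.4 and 16.7% in K700E, without overlap, on 23 to 79 overlaps. NSD2, an H3K36 methyltransferase, had 54.6 and 56.8% in WT and 41.6 and 48.9% in K700E, also without overlap. EED, the PRC2 subunit that binds methylated H3K27, was higher in both K700E samples, at 67.3 and 66.0% against 57.5 and 56.4%. The gene value of EZH2 was also higher, at 47.1 and 38.2% against 37.5 and 32.9%. Over its coding transcript the shares were 44.5 and 38.6% in WT against 56.7 and 46.5% in K700E, also higher. Of the single introns in that transcript, 17 had at least 5 reads in each group. Their summed share was lower in K700E for 10 and higher for 6. SUZ12, the third PRC2 core subunit, had overlapping groups. KDM6A had 63.7 and 76.8% in WT against 45.1 and 78.1%, and only K700E replicate 1 was low. BRD7, a SWI/SNF bromodomain protein, had 63.2 and 60% against 71.4 and 67.9%, without overlap. KDM5A and KDM5B had 79.4 to 88.6% spliced across all 4 samples, and KDM5A differed by 2.04 percentage points.

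The 10 members with reads that were not tested had under 10 overlaps in at least 1 sample. They were BRD3, BRMS1, CREBBP, CXXC1, DOT1L, SAP130, SAP18, SAP30, SETD1A and WDR5. SETD1A, a COMPASS methyltransferase, had 9 and 5 overlaps in WT and 17 and 27 in K700E, with 66.7 and 80% spliced against 0 and 18.5%. A count of 0 of 17 allows a share of up to 17.6% only if the overlaps are separate reads. One read can supply several of these overlaps, so the limit may be higher. WDR5 had 40, 13, 8 and 9 overlaps, with 95% and 69.2% spliced in WT against 75% and 77.8%.

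Reads crossing 1 coding transcript per gene gave 448 introns with at least 5 reads in each group over the 33 genes, and 274 of them (61.2%) had a lower summed share in K700E. One long read enters every intron it crosses, so introns of a gene are not independent, and no test was made on this count.

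At the level of single introns, 40 unique introns in 7 members had at least 10 reads in every sample and were spliced neither in all reads nor in none. KMT2C supplied 18 of them, RBBP4 10, KDM5B and NSD2 4 each, ASH2L 2, and EZH2 and KDM5C 1 each. In 33 of the 40 the mean was lower in K700E and in 7 higher, and the median difference was -5.62 percentage points. Over all 5093 introns tested it was -1.68, and 61.6% were lower. No member intron passed an adjusted p of 0.05 in edgeR (all introns: 0.0982%), 0 had an unadjusted p under 0.05 (all introns: 3.02%), and DESeq2 and limma called 0. Both K700E samples were below both WT samples in 6 introns (all introns: 19.9%) and above them in 2 (all introns: 9.19%). Without K700E replicate 1 the median was -1.11 percentage points.

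KMT2C accounts for much of that direction. In 17 of its 18 tested introns the K700E mean was lower, yet the K700E samples stood on opposite sides of the WT samples. The median over these introns was 96.8 and 85.7% in WT, 73.7% in K700E replicate 1 and 98.0% in K700E replicate 2. Intron 17, whose junction is printed above, was spliced in 29 of 39 and 28 of 39 reads in WT, and in 8 of 19 and 14 of 21 in K700E (unadjusted p = 0.228, adjusted p = 0.984, edgeR). Intron 52 (chr7:152146736-152148032) was spliced in all 36 and all 31 reads in WT, and in 10 of 11 and 14 of 15 in K700E. Of the 18 tested KMT2C introns, these were the only ones with both K700E samples on the same side of both WT samples. Intron 52 turned on 1 unspliced read in each K700E sample.

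**Figure D2:**
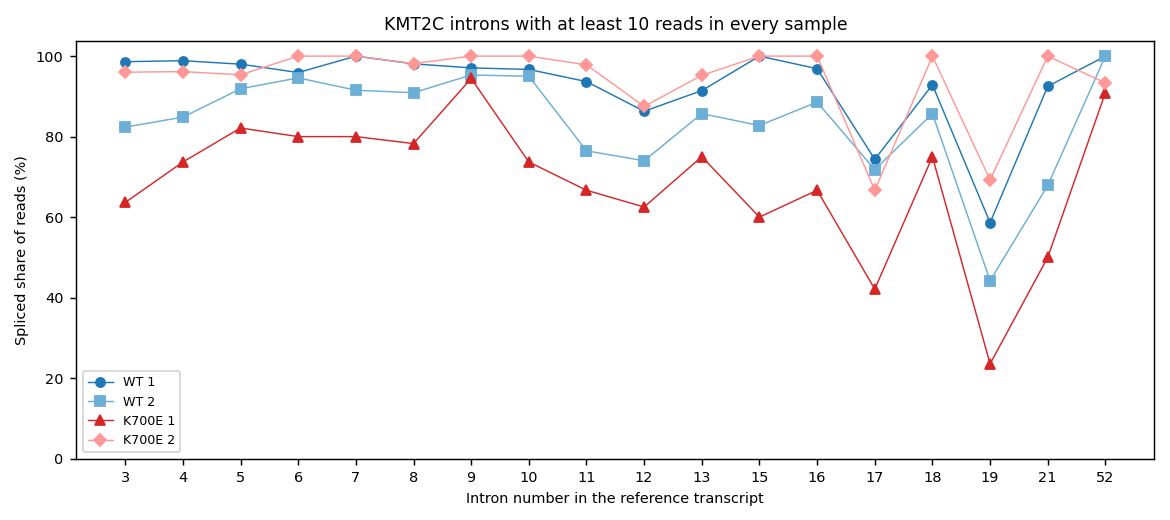
Spliced share of reads (%, y axis) at the KMT2C introns of its 58-intron reference transcript that had at least 10 reads in every sample (x axis: intron number), 1 line per sample. K700E replicate 1 (dark red) is the lowest line at nearly every intron and K700E replicate 2 (light red) is mostly level with WT replicate 1, while introns 17 and 19 dip in all 4 samples.

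The first introns of KMT2C illustrate the spread. Intron 4, with the 3′ end printed above, was spliced in 87 of 88 and 28 of 33 reads in WT, and in 14 of 19 and 25 of 26 in K700E. Its mean difference of -6.94 percentage points became 4.30 without K700E replicate 1. Introns 3, 5 and 7 likewise turned from -10.7, -6.20 and -5.76 percentage points to 5.52, 0.40 and 4.24. K700E replicate 1 was the shallowest library, and the part of its depth in these low values was not tested.

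In RBBP4 the spread had the opposite order. Intron 4, shown above, was spliced in 31 of 39 and 29 of 40 reads in WT, and in 8 of 10 and 14 of 29 in K700E, where replicate 2 was the low sample. Its difference of -11.9 percentage points became 4.01 without K700E replicate 2. Intron 5 (chr1:32668855-32668971) had 33 of 45 and 32 of 45 in WT, and 10 of 12 and 16 of 31 in K700E. Intron 3 (chr1:32657573-32668224) was the only RBBP4 intron with both K700E samples below, at 10 of 12 and 12 of 14 against 19 of 20 and 27 of 30. The low K700E sample thus differed between KMT2C and RBBP4.

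Other tested introns rested on few reads. ASH2L intron 6 (chr8:38114288-38114904) was spliced in 12 of 15 and 23 of 29 reads in WT, and in 5 of 11 and 19 of 28 in K700E, a difference of -23.0 percentage points (unadjusted p = 0.249, adjusted p = 0.984, edgeR). NSD2 intron 6 (chr4:1917038-1918140) had 9 of 11 and 16 of 18 in WT, and 11 of 14 and 16 of 20 in K700E. KDM5B, a demethylase of H3K4, had 1 intron lower, intron 16 (chr1:202745983-202746141) with 62 of 65 and 29 of 29 against 11 of 12 and 15 of 16. Its intron 19 (chr1:202741723-202742390) was higher, with 52 of 53 and 29 of 30 against 12 of 12 and 12 of 12. In KDM5B each of these orderings turned on at most 3 unspliced reads in a group.

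EZH2 differed from most members in how little of it was spliced in either group. Intron 10 was spliced in 3 of 67 and 0 of 24 reads in WT, and in 2 of 12 and 2 of 17 in K700E. A count of 0 of 24 allows a share of up to 12.5%. The difference of 12 percentage points had an unadjusted p of 0.234 and an adjusted p of 0.984 (edgeR), so it was not detectable at this depth. Intron 11 was spliced in 3 of 63 and 0 of 21 reads in WT, and in 2 of 9 and 1 of 9 in K700E, and was not tested because K700E had under 10 reads.

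With both samples of a group summed, EZH2 intron 10 was spliced in 3.3% of WT reads (95% Wilson interval 1.13 to 9.25%) and 13.8% of K700E reads (5.50 to 30.6%). Intron 7 stood at 14.3 and 7.69%. Introns 12 and 13, next downstream of the pair, were also spliced in the minority of reads, intron 12 in 39.4 and 22.2% and intron 13 in 32.4 and 21.4%. Introns 4 to 6, upstream, stood at 92.6, 87.0 and 85.7% in WT, and introns 15 and 16, further downstream, at 92.9 and 95.8%. Intervals cover counting error only, since the reads were amplified by PCR and molecular identifiers are not mentioned. Other members also had introns at low values in WT. One was the 80-nt intron 5 of BRD2, with 0 of 19 and 2 of 12 reads in WT, and 0 of 1 and 1 of 15 in K700E. An annotated 85-nt intron of HDAC1 (chr1:32330578-32330662) was spliced in 0 of 20 and 0 of 16 reads in WT, which allows shares of up to 15 and 18.8%, and in 0 of 7 and 0 of 9 in K700E. It is annotated only in 1 non-coding transcript, so these reads do not show an unspliced coding intron. A pair of annotated 1-nt gaps in SETD2 also had no spliced read in any sample.

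**Figure D3:**
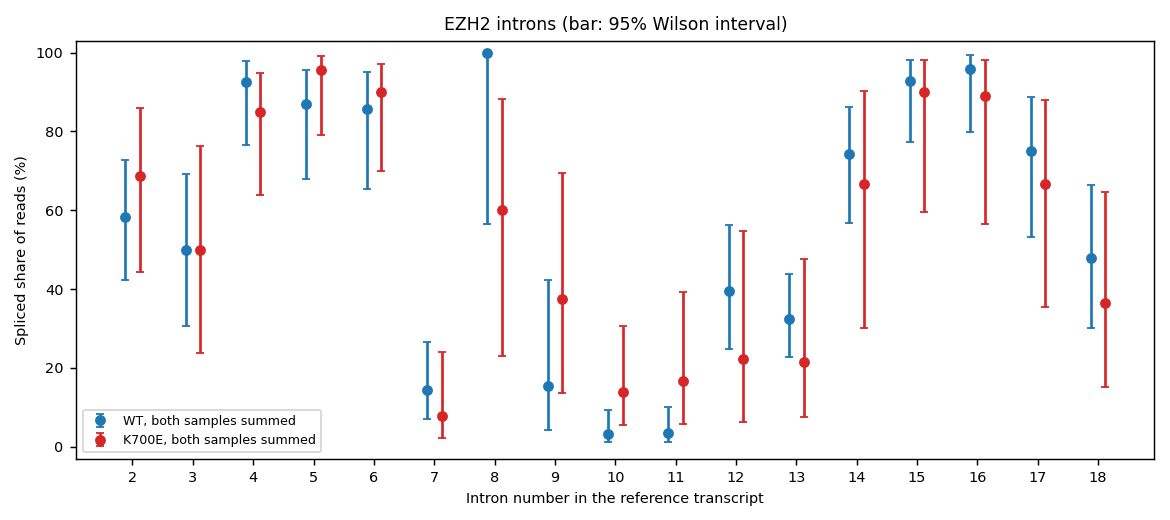
Spliced share of reads (%, y axis) at the introns of the 19-intron EZH2 reference transcript with at least 5 reads in each group (x axis: intron number), both samples of a group summed, with 95% Wilson intervals as bars. Introns 7, 10 and 11 lie low in both groups, introns 12 and 13 stand between 21.4 and 39.4%, introns 15 and 16 lie high, and the intervals of WT (blue) and K700E (red) overlap at every intron.

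In the WT samples alone, 194 member introns in 22 genes had at least 10 reads in both samples, counting the most used of overlapping introns. Their median efficiency was 90.5%, against 91.2% over 16236 introns of all genes. Introns of up to 500 nt had a median of 78.0% (all genes: 79.0%), longer ones of up to 3000 nt 91.7% (92.9%), and those above 3000 nt 93.5% (94.5%). The order by length was the same in both. By gene, the medians ran from 8.33% in BRD2 (1 intron), 24.0% in HDAC3 (3 introns) and 30.4% in EZH2 (7 introns) to 97.5% in KDM5B (15 introns) and 100% in EP300 (4 introns) and KDM5A (9 introns).

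Alternative 3′ splice sites were examined because K700E is known for them. Members had 51 annotated pairs of 3′ splice sites, 12 to 500 nt apart, that share a 5′ splice site. Of these, 43 had junction reads, 8 used both sites, and none had the junction reads needed for a test. Over all genes 64 pairs were tested and none passed (edgeR, 0%; 0 at an unadjusted p under 0.05 and 0 with DESeq2). The test lacked power at this depth. Of 9 member pairs 12 to 40 nt apart, 1 used both sites. Junctions to sites that the annotation lacks were not counted, so cryptic sites outside the annotation were not measured.

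The pair with most use of both sites was in KMT2C, 72 nt apart at an intron from chr7:152157760. The upstream site took 18, 12, 4 and 8 junction reads in WT replicates 1 and 2 and K700E replicates 1 and 2, and the downstream site 3, 1, 1 and 2. The upstream share was 88.2% in WT (Wilson interval 73.4 to 95.3%) and 80.0% in K700E (54.8 to 93.0%), a difference within these intervals. In RBBP7 the upstream of 2 sites 27 nt apart took all 22 reads, 11, 5, 3 and 3 by sample, and a count of 0 of 22 allows the downstream site up to 13.6%. The sequences from just after the upstream site to 10 bases past the downstream one show what each choice adds or drops, with the AG of the downstream site in capitals.
KMT2C, between sites, chr7:152156265-152156346: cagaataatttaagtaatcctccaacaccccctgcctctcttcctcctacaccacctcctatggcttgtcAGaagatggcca
RBBP7, between sites, chrX:16858813-16858849: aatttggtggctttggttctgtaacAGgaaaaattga
HDAC1 used mainly the downstream of 2 sites 130 nt apart, with 14, 17, 6 and 3 reads, and the upstream site had 2, 1, 0 and 0. KMT2A used the downstream of 2 sites 21 nt apart in 14 of 15 reads, and the 1 upstream read came from WT replicate 1.

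The letters AG were searched for in bases 11 to 30 before the intron end, on the strand of the gene, as a description of where an upstream site could lie. They were present in 87 of 230 member introns (37.8%) and 26197 of 58867 introns of all genes (44.5%) for which a transcript covers the intron end. Such introns are those annotated as retained or as exonic in some transcript, and no splice site is inferred from a match.

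Nascent coverage, the number of read-intron overlaps per gene scaled by the trimmed mean of M values (TMM), was compared next. In bulk samples fewer transcribing cells and less RNA per cell cannot be told apart. Of the 33 members tested, 19 were lower and 14 higher in K700E, with a median log2 fold of -0.21 against -0.00 over all 5121 genes. No member passed an adjusted p of 0.05 in edgeR (all genes: 0.0781%), and DESeq2 called 0. At an unadjusted p under 0.05 was 1 member, KDM5C (all genes: 6.78%). Both K700E samples were below both WT samples in 11 members (all genes: 17.3%) and above them in 4 (all genes: 18.2%). Scaling by library totals moved the median of all genes to 0.22 and that of the members to 0.06, so directions here are relative to the TMM scale.

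The histone demethylases were the group in which all tested genes were lower. KDM5C, an X-linked H3K4 demethylase (ENSG00000126012.11, chrX:53191321-53225422, minus strand), had 820 and 426 overlaps in WT and 82 and 142 in K700E. As TMM-scaled CPM, counts brought to a common library total, the WT samples had 734 and 404, against 177 and 161 for K700E, and the groups did not overlap. The log2 fold was -1.75 ± 0.60 (SE; unadjusted p = 0.00514, adjusted p = 0.523, edgeR). Without WT replicate 2 it was -2.15 with an adjusted p of 0.0451, the only alternative in which a member passed, and without WT replicate 1 it was -1.27. KDM5B had 693 and 455 CPM in WT and 308 and 268 in K700E (log2 fold -0.99 ± 0.58), and KDM5A 280 and 250 against 151 and 183 (-0.67 ± 0.61). KDM6A, which acts on H3K27, had 362 and 298 against 330 and 218 CPM, with overlapping groups.

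**Figure D4:**
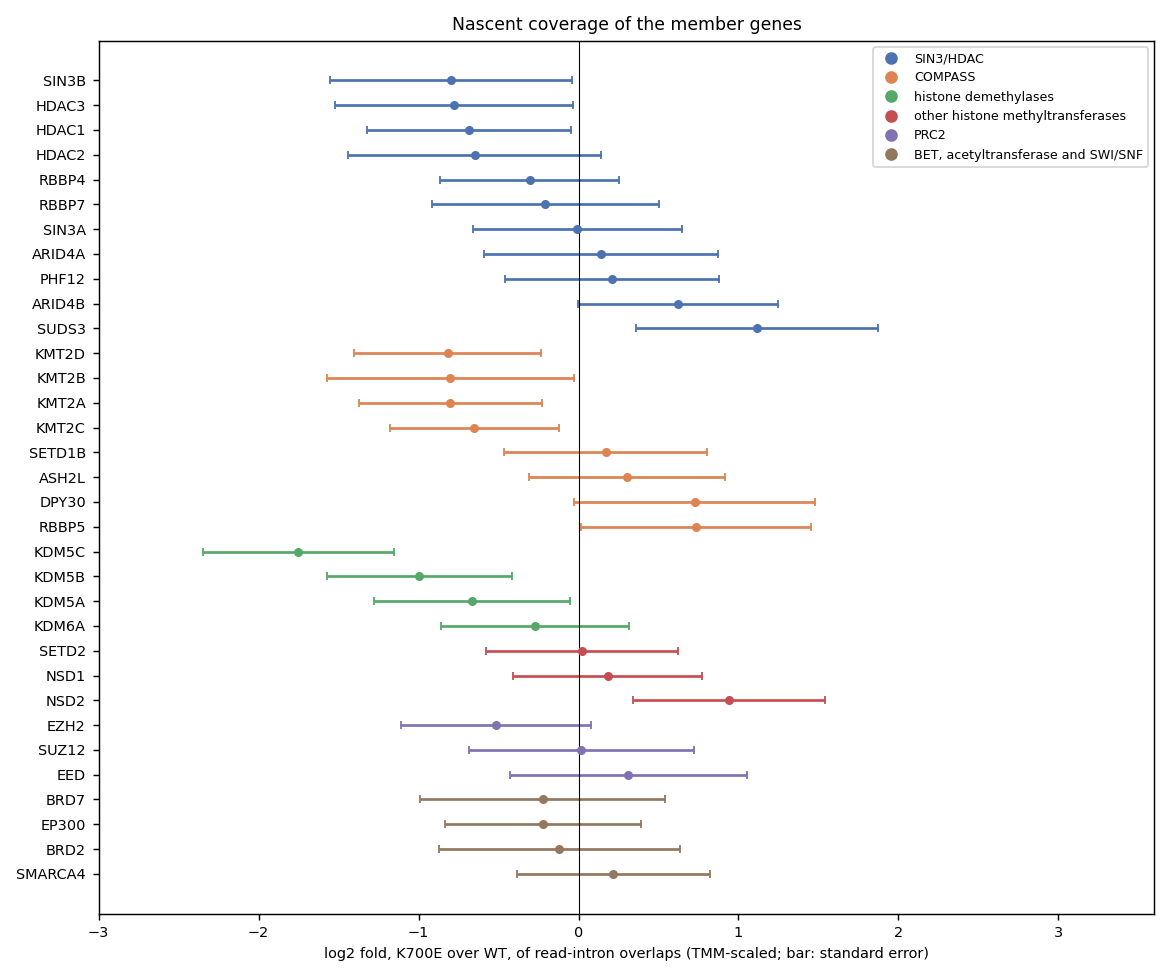
Log2 fold of nascent coverage (K700E over WT, TMM-scaled, x axis) for the 33 members tested, coloured by complex, with standard errors as bars. KDM5C at -1.75 lies farthest from 0, and the bars of many members cross 0.

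Along KDM5C the reads were concentrated in the middle of the gene in all samples. Introns 9 to 15 of the 25-intron transcript held 69.9 and 70.3% of overlaps in WT and 59.4 and 71.5% in K700E. This stretch was chosen after its values were seen. Intron 11 (chrX:53210577-53210675) had the most reads, with 96 and 52 for the WT samples against 10 and 25 for K700E. Of these, 93 and 48 (WT) and 8 and 24 (K700E) were spliced, so the difference in reads was not matched by an ordered difference in splicing. Its junction reads as follows, with capitals as above.
KDM5C intron 11, joined: taactacctccacTGGGgtgagccgaagac
At introns 19 to 25 each sample had 0 to 7 reads per intron, too few to compare.

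**Figure D5:**
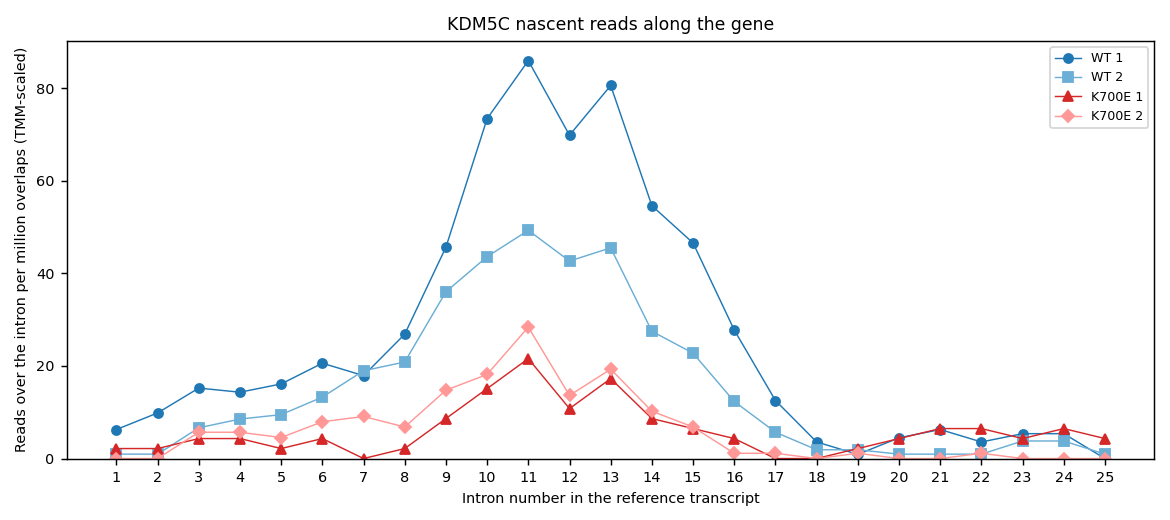
Reads over each KDM5C intron as TMM-scaled CPM (y axis) by intron number in the 25-intron transcript (x axis), 1 line per sample. Both WT lines (blue) lie above both K700E lines (red) from intron 3 to intron 18, with the peak at intron 11 in all 4 samples.

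Of the COMPASS methyltransferases, KMT2A, KMT2B, KMT2C and KMT2D had both K700E samples below both WT samples, and none passed the adjusted threshold. SETD1B had overlapping groups (log2 fold 0.17 ± 0.63). SETD1A, too shallow to be tested, was higher, with 8.05 and 4.74 CPM in WT against 36.7 and 30.6 in K700E. KMT2A had 712 and 505 CPM in WT and 345 and 353 in K700E (log2 fold -0.80 ± 0.57). KMT2D had 546 and 649 against 488 and 193, so that K700E replicate 2 carried most of its difference. KMT2C had 2539 and 1543 against 1178 and 1420, and KMT2B 63.5 and 83.4 against 58.2 and 27.2. Of the shared subunits, DPY30 had 52.8 and 61.6 CPM in WT against 77.7 and 111 (log2 fold 0.73 ± 0.75), without overlap. Most of these overlaps lay outside the introns of its coding transcript, and part of its span is shared with MEMO1. RBBP5 had 44.8 and 119 against 175 and 99.9, with overlapping groups.

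In the corepressor group the levels of SIN3B, HDAC1, HDAC3 and RBBP4 were below both WT samples in both K700E samples. SIN3B had 107 and 91.0 CPM in WT and 56.1 and 57.9 in K700E. HDAC1 had 209 and 264 against 196 and 99.9, and HDAC3 128 and 105 against 90.6 and 46.5. SUDS3, a SIN3-associated subunit, was higher, with 34.9 and 26.5 against 79.8 and 54.5 (log2 fold 1.12 ± 0.76), as was ARID4B, an ARID-domain partner, with 203 and 121 against 289 and 211. SIN3A itself had overlapping groups.

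NSD2, an H3K36 methyltransferase, was higher by its means, at 156 and 180 CPM in WT and 347 and 297 in K700E (log2 fold 0.94 ± 0.60, unadjusted p = 0.124, adjusted p = 0.807, edgeR). The groups did not overlap. SETD2 and NSD1, the other H3K36 methyltransferases tested, had log2 folds of 0.02 and 0.18 and overlapping groups, as did the 3 PRC2 genes and the 4 tested BET, acetyltransferase and SWI/SNF genes.

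In TMM-scaled CPM per kilobase of the most used introns, KMT2D had the highest level of the members in both groups, with 30.6 and 37.2 for WT against 28.6 and 11 for K700E. By the mean of all 4 samples KDM5C followed, with 24.0 and 13.9 against 5.46 and 5.71, and RBBP4 with 13.8 and 12.5 against 12.5 and 9.26. The ranges of KDM5C and RBBP4 overlapped. In K700E alone RBBP4 (mean 10.9), BRD2 (6.49) and ASH2L (5.74) stood above KDM5C (5.59). The lowest means of all 4 samples were those of DPY30 (0.311 to 0.596 over the 4 samples), CREBBP (0.104 to 0.517) and SAP130 (0.211 to 0.471). Their ranges also overlapped, and most overlaps of DPY30 lay outside the introns of its coding transcript. The lowest mean was that of DOT1L (0.263) in WT alone and of BRMS1 (0.179) in K700E alone. Overlaps rise with the number of introns that a read crosses, so genes with many short introns, such as KMT2D, stand higher on this scale.

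Of 75 further genes of the same complexes and their relatives, such as the NuRD, NCoR, KDM4 and PRC2 accessory genes, 74 had reads and 53 were tested. Their splicing efficiency was lower in K700E for 35 and higher for 18 (all genes: 62.4% lower). The median difference was -3.50 percentage points, and none passed in edgeR. At an unadjusted p under 0.05 (all genes: 3.3%) was 1 gene, TBL1X of the NCoR complex, with 75 and 53.0% spliced in WT against 12.1 and 29.2%. For coverage none of the 53 passed, and 7 had an unadjusted p under 0.05 (all genes: 6.78%). The smallest was that of EHMT1, an H3K9 methyltransferase, at 26.0 and 160 CPM in WT and 675 and 153 in K700E, with overlapping groups. PHF19, a PRC2 accessory protein, had 362 and 498 against 104 and 152, and the demethylase KDM3A 1588 and 624 against 233 and 486, both without overlap.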

How the data were processed

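Chromatin RNA of 4 samples was sequenced after adapter ligation, template switching and 15 PCR cycles, per the labels' protocols. Tools named in the submitters' processing notes are cutadapt and minimap2, with build hg38. Their versions, the strand handling and the read assignment are not stated in the sources used here. Per sample, the authors deposited a table with 2 counts per annotated intron, reads over it and reads with its junction, and their ratio (CoSE); only the counts were used, and the ratio exceeded 1 in 2.23 to 4.16% of rows, where it was set to 1. A second deposited table, of RNA 3′ end positions, was not used. Rows were placed on GENCODE 29 by transcript, intron index, start and strand (87.3 to 87.6% placed), and rows sharing coordinates were merged, keeping the larger count.

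Efficiency was tested in edgeR 4.0.16 (R 4.3.3) on pairs of spliced and unspliced counts, with a coefficient per sample and the interaction of splicing with genotype, on features with at least 10 reads in every sample. Dispersion was estimated for genes and set to 0 for introns and 3′ site pairs, where the spread is then pooled over features and p-values depend little on the replicate scatter of a single intron. Coverage used edgeR with TMM. Adjusted p-values are Benjamini-Hochberg over all features tested. Alternatives used DESeq2 1.42.0, limma 3.58.1 (0.5 added to counts), other filters, other counting and each sample left out. On simulated data the tests called, at log2 odds ratios of 4 and 2, 73 and 3% of altered genes (5077 genes), 26 and 1% of altered introns (4805), 0% of 3′ site pairs (60), and, for coverage, 98% and 42% of genes changed by log2 folds of 4 and 2 (4577). The simulated features shared 1 spread, unlike real ones. With 2 samples a group, smaller differences are mostly not detectable.

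Members, gene lists and tests were chosen with earlier results of these data known. Named genes are up to 10 members with the smallest p per gene test, up to 12 introns with the smallest p, up to 6 introns per direction with the largest difference among those with both K700E samples outside both WT samples, the 3 highest and 3 lowest levels per kilobase, up to 10 pairs of 3′ sites, and up to 6 other pathway genes; further genes were named to describe each complex after their values were seen. Coding transcripts for introns in order are those with most junction reads. Sequences were read from GENCODE 29 transcripts (GRCh38).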

Additional observations from a re-analysis of the deposited data

How the results depend on the processing

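No member gene, intron or pair of 3′ sites passed in the reported tests or under the alternatives for splicing, whether filters, tools, dispersion, counting or omitted samples. For coverage, no member passed in the alternatives that kept all 4 samples. With 1 sample left out, the log2 fold of KDM5C was -2.15 (without WT replicate 2) to -1.27 (without WT replicate 1). The members' median coverage fold was 0.055 with library totals only, and -0.44 to 0.13 with 1 sample left out. The median gene difference was -8.06 percentage points with only the most used introns and -8.77 to 1.30 with 1 sample left out. The median intron difference was -9.25 to -1.11 with 1 sample left out. Of 36 named values, 7 changed sign, all with a sample left out. With 1 sample left out, the difference in KMT2C ran from -26.8 to 5.52 percentage points at intron 3, -18.2 to 4.30 at intron 4, -12.8 to 0.40 at intron 5 and -15.8 to 4.24 at intron 7, the highest value each time without K700E replicate 1, and intron 4 was at 0.07 without WT replicate 1. In RBBP4 it ran from -27.7 to 4.01 at intron 4, -20.6 to 11.1 at intron 5 and -26.6 to 10.9 at intron 10, the highest each time without K700E replicate 2, and intron 10 was at 3.12 without WT replicate 1. The cause was not tested. Samples with the same replicate number did not deviate together (correlation over features -0.058 for gene efficiency, -0.16 for introns and -0.074 for coverage). Whether such samples shared a preparation or a sequencing run was not tested. With the replicate block, 0 members passed in each of the 4 comparisons, as without it; over all features the block gave 0 genes, 3 introns (5 without it) and 4 genes for coverage. With crossed numbers as the block, 5 introns passed over all genes and 0 in the members. Pairs of 3′ sites could not be tested in the members at this depth. A lone sample left in a group is assumed to vary like the other group.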
